A study of Mus musculus with 12 samples.

Results

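The comparison described here set a higher against a lower dose of methoxyacetic acid (MAA) after the same exposure of 8 h. Mouse TM3 cells, an established line from the testis of an immature mouse that serves as a model of the androgen-producing Leydig cell, were cultured with 5 mM MAA, with 1 mM MAA or in medium alone. Of the 12 arrays of the series, 4 belong to this comparison, 2 at 5 mM and 2 at 1 mM, and they were chosen by the dose and time in their labels. The other 8 arrays hold the same 2 doses at 3 h and 24 h. Each array carried RNA pooled from 3 MAA-treated cultures against RNA pooled from 3 untreated control cultures of the same time, in different dyes. The dyes were exchanged between replicates 1 and 2, and the 2 pools of a condition came from different cultures. Whether the 5 mM and 1 mM arrays shared control cultures was not given in the sources used here. All values concern 1 cell line, without other cells of the testis.

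The body forms MAA by oxidizing the solvent ethylene glycol monomethyl ether, and it damages the testis. It is a short-chain carboxylic acid, and like several other such acids it inhibits histone deacetylases, the enzymes that take acetyl groups off histones. It is also known to activate extracellular signal-regulated kinase (ERK) signaling and to enhance signaling through nuclear hormone receptors. In the testis, Leydig cells make testosterone from cholesterol and signal to germ cells and Sertoli cells.

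The measure used throughout is the log2 ratio of MAA to control signal, so that 1 stands for a doubling. The dose difference is the log2 ratio at 5 mM minus that at 1 mM, and a gene passed the dose test where this difference had an adjusted p under 0.05 (limma, Benjamini-Hochberg over all 41174 probes). A probe was called at a dose by the study's thresholds, p under 0.005 together with a change of over 2-fold (5 mM arrays) or 1.5-fold (1 mM arrays). All 4 arrays had a channel well above background for 62.9% of the probes. Median signals were higher on the 5 mM arrays, 115 to 129 in either channel, than on the 1 mM arrays, 78.3 to 80.4, and the part of this gap in the dose difference was not tested. Over all probes the replicates of 5 mM correlated at 0.630 and those of 1 mM at 0.133. Of 9 Leydig cell markers, Star, Cyp17a1 and Insl3 were well above background in the control channel of all 4 arrays, while Cyp11a1, Hsd3b1, Hsd3b6 and Lhcgr were so on none. Of 8 Sertoli cell markers, 5 were above background on all 4 arrays (Clu was higher and Wt1 lower at 5 mM in the dose test below), as were 3 of 4 for peritubular myoid cells 2 of 4 for germ cells and none of 4 for endothelial cells.

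The higher dose gave the larger response for most of the genes that separated the doses. In the dose test 1992 probes (4.84% of those tested) had a higher log2 ratio at 5 mM and 2170 (5.27%) a lower one. Taking 1 probe per symbol, 985 genes (6.15%) were higher and 1064 (6.64%) lower. Of the 4162 probes in all, 3986 departed further from control at 5 mM than at 1 mM, and 775 differed by over 2-fold between the doses (301 higher and 474 lower at 5 mM). Each slide held 1 array of each dose, and on both slides all 4162 differed in the direction of the mean, which their selection on these arrays favors; over all probes the 2 slides gave the same sign for 67.4%. The median dose difference over all probes was -0.03. When the control channels of the 2 doses were compared directly, 14 probes differed (limma, adjusted p under 0.05; 1058 at an unadjusted p under 0.05). The MAA channels differed at 10000 probes.

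These counts depended on which arrays entered. Without 1 of the 4 arrays (replicate 1 or 2 of either dose), 418 to 652 probes were higher and 641 to 941 lower. With the slide as a block the counts were 3084 and 3209. After each array was centred on its median they were 448 and 1043, so that 30.0% of calls were higher at 5 mM rather than 47.9%.

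Against control, 1259 probes (3.06%) were called up and 1025 (2.49%) down at 5 mM, and 707 (1.72%) up and 270 (0.656%) down at 1 mM. The 2634 probes called at either dose were sorted by what the other dose did. A response was dose-graded where both doses were called in the same direction, 5 mM was the larger and the dose test was passed. It was saturated where both doses were called the same way and the dose test was not passed. The 95% interval of that difference had to lie within 2-fold. A response was dose-restricted where 5 mM alone was called and passed the dose test, with the 95% interval of the 1 mM ratio within 1.5-fold of control. Where that interval reached past 1.5-fold the response was termed partial. It was low-dose where 1 mM was called and 5 mM was lower in size or opposite, with the dose test passed. This sorting used the ratios themselves, so its counts are a description.

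Most dose-restricted responses were falls, while most dose-graded and saturated ones were rises. There were 524 such probes (166 up, 358 down), 300 dose-graded probes (195 up, 105 down), 160 saturated probes (127 up, 33 down) and 59 low-dose probes (46 up, 13 down). A further 484 probes were partial and 1107 could not be placed. The median log2 ratio of dose-graded probes that rose was 1.83 at 5 mM and 0.84 at 1 mM, so the lower dose reached a median 45.9% of the higher over both directions. For dose-restricted probes that fell, the medians were -1.23 and -0.21. For saturated probes that rose, they were 1.21 and 0.90, and the share was 73.4%. With arrays centred there were 188 dose-graded, 202 saturated and 416 dose-restricted probes, so the order of the classes by size depended on the setting. With the slide as a block the counts were 440, 286 and 424. That fit gives ratios to control as on a slide without arrays of 8 h, so these counts are not comparable. Leaving out 1 of the 4 arrays left 114 to 172 dose-graded, 141 to 159 saturated and 254 to 496 dose-restricted probes.

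**Figure D1:**
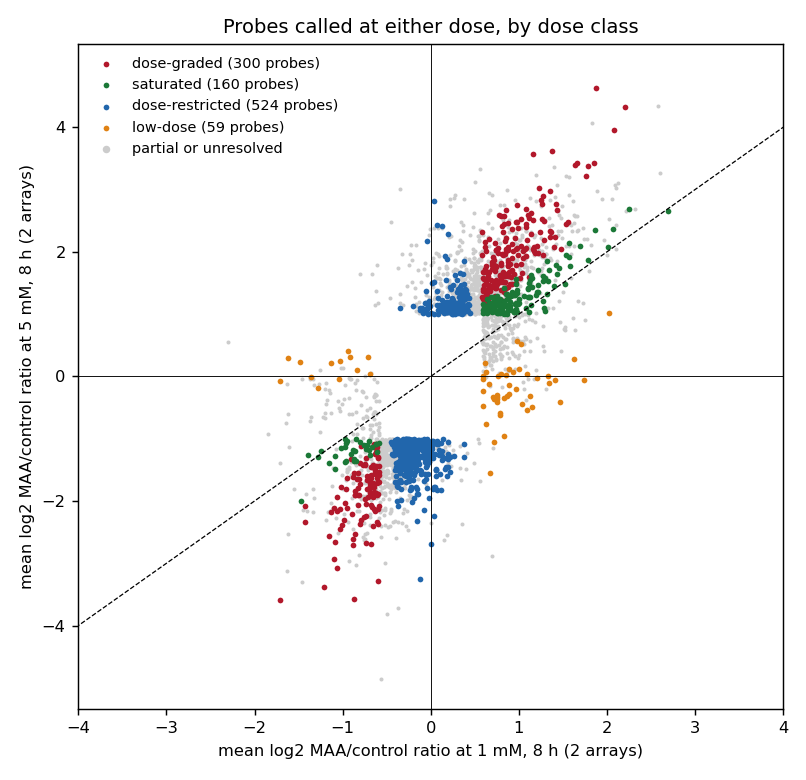
Mean log2 MAA/control ratio at 1 mM (x axis) and 5 mM (y axis) for every probe called at either dose at 8 h, 2 arrays per dose, coloured by dose class, with the dashed line where both doses are equal. The 300 dose-graded probes lie on a slope steeper than that line, the 160 saturated probes near it, and the 524 dose-restricted probes close to the vertical axis.

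Large dose-graded rises were found in genes of different functions. Dhh, which encodes the desert hedgehog ligand, had log2 ratios of 4.22 and 5.05 at 5 mM and 1.63 and 2.12 at 1 mM, with a dose difference of 2.76 ± 0.37 (SE, adjusted p = 0.00579). Neither 5 mM array had a control channel well above background, so the 5 mM response is at least 24.8-fold. Such bounds were taken against the dim channel's own signal or the lowest signal well above background, whichever was higher. Slc2a4, the insulin-responsive glucose transporter GLUT4, stood at 4.22 and 4.42 against 2.24 and 2.16 (difference 2.12 ± 0.21, adjusted p = 0.00231). In both genes each 5 mM array lay above each 1 mM array. Over all probes the arrays of the 2 doses did not overlap for 47.1%, and genes named for a large difference were bound to be among these. Gch1, the entry enzyme of tetrahydrobiopterin synthesis, gave 3.60 and 3.65 against 1.29 and 1.47 (difference 2.24 ± 0.10, adjusted p = 0.000438). A second Gch1 probe gave a difference of 1.18 that did not pass (adjusted p = 0.0512). Tmem255a, a membrane protein gene, had 4.20 and 3.72 against 2.14 and 2.02, and a second probe of it was at a mean of 0.57 and 0.68 with no difference called (adjusted p = 0.948). Its probes thus disagree on the rise itself.

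Signaling genes were among the dose-graded rises. Areg, a ligand of the EGF receptor, was at 3.24 and 3.56 at 5 mM and 1.57 and 1.70 at 1 mM (difference 1.77 ± 0.16, adjusted p = 0.00172). Itpka, a kinase that phosphorylates inositol trisphosphate, was at 2.50 and 2.58 against 1.06 and 1.17 (1.43 ± 0.11, adjusted p = 0.00104). Kcnab3, a potassium channel subunit, was at 2.06 and 2.12 against 1.17 and 1.23 (0.89 ± 0.08, adjusted p = 0.00178). Each of these 3 genes was above control at both doses. Cyp1a1, the xenobiotic-metabolising cytochrome P450, was at 2.58 and 2.46 against 1.04 and 1.00 (1.5 ± 0.27, adjusted p = 0.0152), and its adjusted p was 0.0671 to 0.0885 when any of the 4 arrays was left out.

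Dose-graded falls included hormone receptors and vascular genes. Angpt2, a ligand of the endothelial TIE2 receptor, was at -2.96 and -2.89 at 5 mM and -1.16 and -1.03 at 1 mM (difference -1.83 ± 0.17, adjusted p = 0.00178). Ptgfr, the prostaglandin F receptor, was at -3.28 on both 5 mM arrays and -0.68 and -0.53 on the 1 mM arrays (-2.68 ± 0.19, adjusted p = 0.000986), with the MAA channel above background on 1 of the 5 mM arrays. Ly96, the co-receptor of TLR4 for bacterial lipopolysaccharide, was at -1.90 and -1.83 against -0.65 and -0.67 (-1.20 ± 0.08, adjusted p = 0.000751). In these 3 genes the lower dose gave a fall of smaller size on each array. Agtr2, a receptor of angiotensin II, was at -3.05 and -4.14 against -1.69 and -1.75. Neither 5 mM array had an MAA channel well above background for it, which makes the fall there at least 12.1-fold. Its dose difference of -1.88 ± 0.35 (adjusted p = 0.0175) had an adjusted p of 0.0992 without 1 mM replicate 1, 0.0818 without 1 mM replicate 2 and 0.0561 without 5 mM replicate 2. With another background correction (normexp with an offset of 50) the difference was -0.39 (adjusted p = 0.125). Abca9, a lipid transporter of the ABC family, was at -2.51 and -2.71 against -0.81 and -0.96 (-1.72 ± 0.32, adjusted p = 0.0163), and 0.0729 to 0.100 was its adjusted p when any of the 4 arrays was left out. Another probe of Abca9 had means of -3.57 and -0.87 (adjusted p = 0.00117). A further probe had means of -1.75 and -0.49 and did not pass (adjusted p = 0.064).

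Saturated genes were called at both doses with a difference that did not pass the adjusted test, although the intervals of some of them lay on 1 side of 0. Glod5, a glyoxalase domain gene, was at 2.71 and 2.68 at 5 mM and 2.37 and 2.13 at 1 mM, a difference of 0.45 (95% interval 0.10 to 0.80, adjusted p = 0.117). Il7r, the interleukin 7 receptor, was at 2.69 and 2.62 against 2.22 and 3.17, so that the doses overlapped. With its control channel not well above background at either dose, Il7r rose at least 6.31-fold at 5 mM and at least 6.47-fold at 1 mM. Its difference of -0.04 had an interval from -0.99 to 0.92, wide enough to hide a difference of nearly 2-fold. Dapk2, a death-associated kinase, also overlapped, with 1.88 and 2.28 against 1.83 and 2.20 (interval -0.83 to 0.96). Car14, a carbonic anhydrase, was at 1.96 and 2.21 against 1.67 and 1.71 (0.40, interval -0.10 to 0.89). Shbg, the sex hormone-binding globulin, was at 1.63 and 2.20 against 1.41 and 1.73 (0.34, interval -0.26 to 0.95). Its control channel was well above background on 1 of the 2 arrays at 1 mM, as was that of Dapk2 on 1 of the 2 at 5 mM. From 1 mM to 5 mM arrays the log2 signal of Shbg was higher by 0.97 in the control channel and by 1.32 in the MAA channel. For Shbg the arrays of the doses overlapped, and for Car14 they did not.

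Saturated falls were fewer than rises. Depp1, a gene known to respond to FOXO factors, was at -1.41 and -1.16 at 5 mM and -1.26 and -0.91 at 1 mM (difference -0.20, interval -0.72 to 0.33). Gsta2, a glutathione transferase, was at -1.41 and -1.31 against -0.96 and -0.78 (-0.49, interval -0.95 to -0.03, adjusted p = 0.187). Fbxl13, an F-box gene, was at -1.49 on both 5 mM arrays and -0.93 and -1.25 on the 1 mM arrays. Only Depp1 of the 3 had overlapping doses, so the others leave room for a moderate dose effect.

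Dose-restricted rises included transcription factor and surface protein genes. Pitx3, a homeobox factor, was at 1.94 and 1.78 at 5 mM and 0.30 and 0.45 at 1 mM (difference 1.48 ± 0.11, adjusted p = 0.00111). Egr2, an early growth response factor, was at 1.60 and 1.66 against 0.15 and 0.39 (1.36 ± 0.14, adjusted p = 0.00252). Prnd, which encodes the prion-like protein doppel of the testis, was at 1.68 and 1.42 against 0.31 and 0.04 (1.38 ± 0.20, adjusted p = 0.00672). At 1 mM these genes stayed within 1.5-fold of control, while at 5 mM each was over 2-fold above it.

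Dose-restricted falls were larger in number and in size. Dnajc6, the clathrin-uncoating cofactor auxilin, was at -2.09 and -2.20 at 5 mM and -0.01 and -0.14 at 1 mM (difference -2.07 ± 0.23, adjusted p = 0.00312). Sema3a, a secreted guidance cue, was at -2.04 and -2.00 against -0.19 and -0.24 (-1.81 ± 0.09, adjusted p = 0.000621). Fgf7, a growth factor made by mesenchymal cells, was at -1.93 and -1.97 against 0.08 and -0.11 (-1.93 ± 0.11, adjusted p = 0.000657). For these the 1 mM arrays lay close to 0. Gata6, a GATA factor of gonadal somatic cells, was at -1.30 and -1.33 against -0.10 and -0.19 (adjusted p = 0.00124).

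A small set responded more to the lower dose. The 46 low-dose probes that rose had median log2 ratios of 0.84 at 1 mM and -0.22 at 5 mM. Sprr2f, a cornified envelope gene, was at -0.48 and -0.35 at 5 mM and 1.5 and 1.43 at 1 mM (difference -1.88 ± 0.32, adjusted p = 0.0123). Sema3d, a semaphorin, was at -0.37 and -0.52 against 1.09 and 0.99 (-1.48 ± 0.22, adjusted p = 0.00807). Ostn, a secreted peptide of bone and muscle, was at -0.11 and 0.17 against 1.08 and 1.11 (-1.06 ± 0.22, adjusted p = 0.0251). Adamts5, an aggrecan-cleaving protease, was at -0.26 and -0.21 against 0.64 and 0.55 (-0.83 ± 0.11, adjusted p = 0.00586). These 4 genes were above control at 1 mM, with the 5 mM arrays below it except replicate 2 for Ostn. Speer3, of a testis-expressed family of similar genes that a probe may not tell apart, was above control at both doses, at 0.59 and 0.45 against 1.06 and 0.98 (-0.50 ± 0.11, adjusted p = 0.0295). The calls depended on single arrays. The adjusted p was 0.0594 to 0.0801 for Sprr2f and 0.0685 to 0.139 for Ostn whichever of the 4 arrays was left out, and 0.083 to 0.16 for Speer3, with 0.109 after centring. It was 0.0626 for Sema3d and 0.0513 for Adamts5 without 1 mM replicate 1, and 0.0538 for Sema3d without 5 mM replicate 2. With normexp correction Ostn gave -0.53 (adjusted p = 0.0996).

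**Figure D2:**
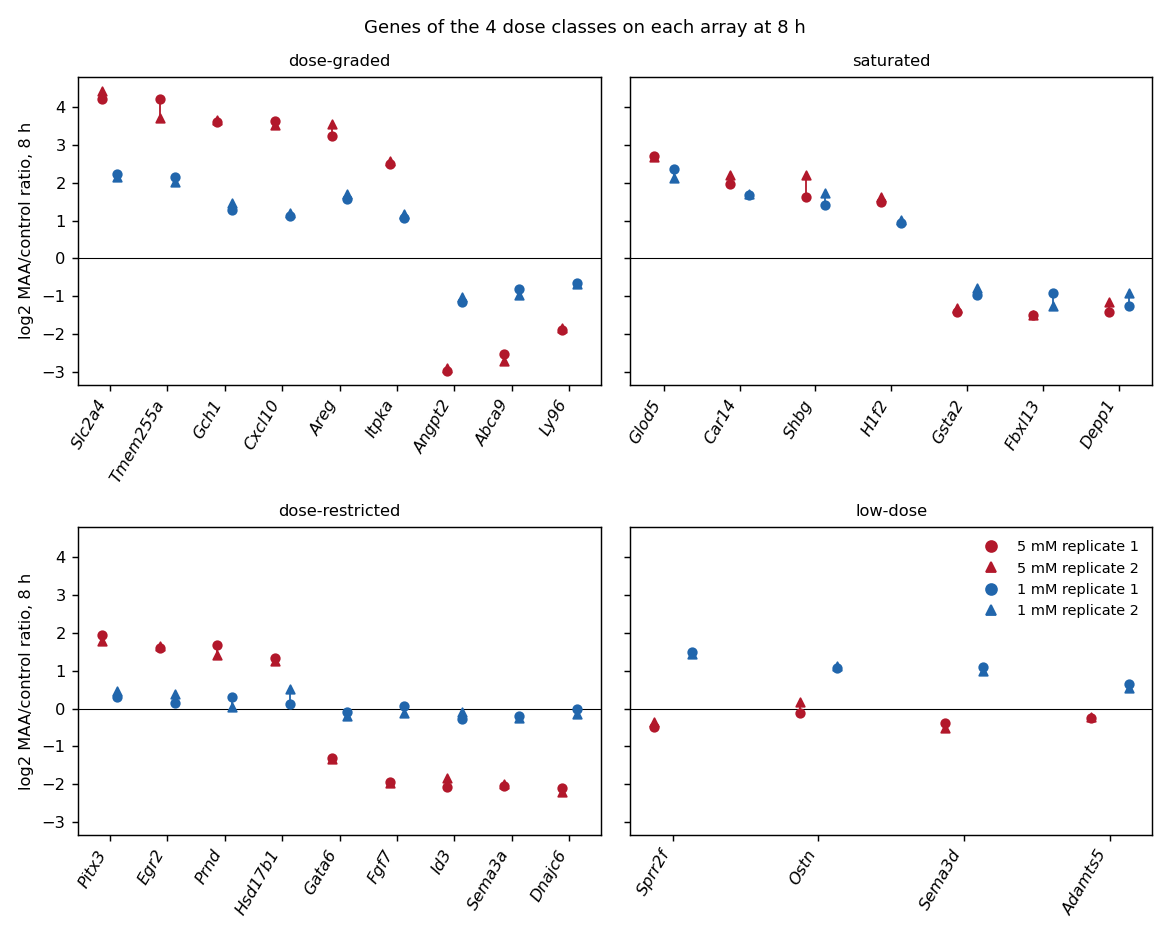
Log2 MAA/control ratio (y axis) of 29 genes on each array at 8 h, in 4 panels by dose class, with circles for replicate 1, triangles for replicate 2, red for 5 mM and blue for 1 mM. In the dose-graded panel red and blue lie on the same side of 0 and apart, in the saturated panel close together, and in the dose-restricted panel the blue points lie near 0; in the low-dose panel the blue points alone lie above 0.5.

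The functions of the genes were described by lists of known members, with 1 probe per gene. As a background, 12.8% of all measured symbols passed the dose test, and 18.1% of those well above background. Set beside that, protocadherins and HOX cluster genes held many members lower at 5 mM and none higher, immediate early transcription factors mostly members higher at 5 mM, and genes of chemokines and interleukins members in both directions.

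**Figure D3:**
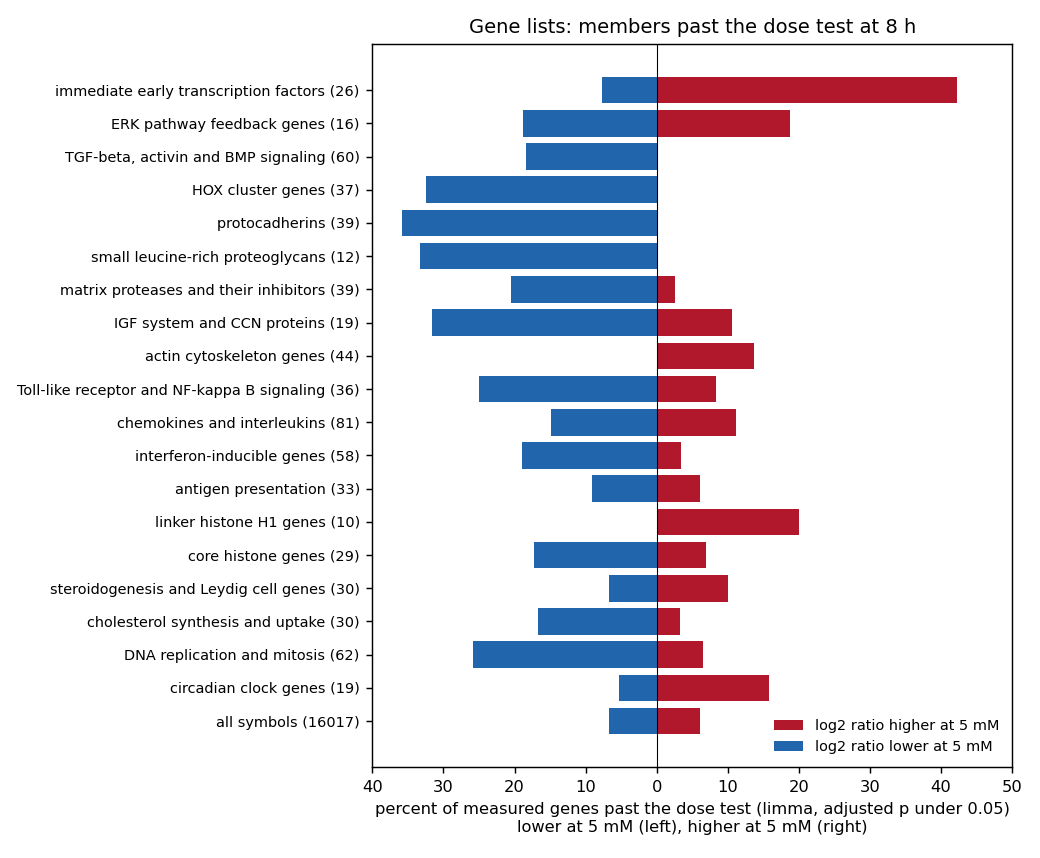
Percent of the measured genes of each list (number in brackets) that passed the dose test at 8 h, with genes of lower log2 ratio at 5 mM drawn to the left and of higher ratio to the right; the last bar is the background over all 16017 symbols. Bars to the left dominate for protocadherins (14 of 39) and HOX genes (12 of 37), and to the right for immediate early factors (11 of 26).

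Immediate early transcription factors are among the genes that growth signals switch on without new protein synthesis. The list so named also held other early genes, such as Ier3. Of its 26 measured members, 11 were higher at 5 mM and 2 lower. The list's median log2 ratio was 0.44 at 5 mM and 0.20 at 1 mM, beside -0.02 and 0.03 over all symbols. The subunits of AP-1 gave 4 higher and 2 lower of 10. Fos was dose-graded, at 1.82 and 1.72 against 0.65 and 0.60 (difference 1.15 ± 0.16, adjusted p = 0.00672). Nr4a1, an orphan nuclear receptor, was dose-restricted at 1.01 and 1.11 against 0.35 and 0.37 (0.70 ± 0.10, adjusted p = 0.00584), and with arrays centred its adjusted p was 0.0551. Ier3, an early gene that affects survival, was at 1.22 and 1.30 against 0.44 and 0.33 (0.88 ± 0.08, adjusted p = 0.00178). Their 5 mM arrays lay above the 1 mM arrays throughout. Fosl1, an AP-1 subunit, went the other way, at -0.67 and -0.55 at 5 mM and 0.22 and 0.24 at 1 mM (-0.84, adjusted p = 0.00409). Egr1 was at 0.28 and 0.19 against 0.51 and 0.46 and did not pass (adjusted p = 0.481), unlike Egr2 above; that these 2 genes differ from each other was not tested.

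Feedback inhibitors of the ERK pathway were split. Of 16 measured, 3 were higher and 3 lower at 5 mM. Spry4, a Sprouty inhibitor, lay on opposite sides of control, at -1.04 and -1.27 at 5 mM and 0.89 and 0.52 at 1 mM (difference -1.86 ± 0.41, adjusted p = 0.0295). Its adjusted p was 0.091 to 0.161 when any of the 4 arrays was left out. Dusp6, an ERK phosphatase named after its values were seen, was at -0.09 and 0.08 against 0.48 and 0.50 (-0.49 ± 0.09, adjusted p = 0.0134). The adjusted p of Dusp6 was 0.0768 to 0.0794 without 1 mM replicate 1, 1 mM replicate 2 or 5 mM replicate 1, and 0.0623 with arrays centred.

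Transforming growth factor beta (TGF-beta), activins and bone morphogenetic proteins (BMPs) signal through SMAD proteins, with ID genes among their targets. Of 60 genes of this signaling measured, 11 passed the dose test and all 11 were lower at 5 mM. That share, 18.3%, stood beside 12.8% of all symbols and 18.1% of those well above background. The 11 genes were 4 of 28 ligands, 3 of 13 receptors and 4 of 19 inhibitors and targets. The ID proteins block basic helix-loop-helix factors, and Id1, Id2 and Id3 were among those that passed. Id3 was at -2.07 and -1.83 at 5 mM and -0.29 and -0.10 at 1 mM (difference -1.75 ± 0.11, adjusted p = 0.00069). Id2 was at -1.16 and -1.55 against 0.09 and -0.19 (-1.31 ± 0.22, adjusted p = 0.0111), with an adjusted p of 0.0819 without 1 mM replicate 1 and 0.0664 without 5 mM replicate 2. Both were dose-restricted. Id1 was at -0.70 and -0.94 against 0.64 and 0.49 (-1.39, adjusted p = 0.00302), and Gdf6, a BMP ligand, at -0.74 and -0.91 against 0.55 and 0.38 (-1.29, adjusted p = 0.00183). These 2 genes were below control on each 5 mM array and above it on each 1 mM array, and the probes shown were called at neither dose. A second Id1 probe, with means of -0.76 and 0.63 (adjusted p = 0.00213), was called up at 1 mM and is low-dose.

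HOX genes encode the homeobox factors of body patterning. Of 37 measured, 12 were lower at 5 mM and none higher, with list medians of -0.30 at 5 mM and -0.02 at 1 mM. Hoxd4 was at -1.60 and -1.51 against -0.08 and -0.39 (difference -1.31, adjusted p = 0.00399). Hoxb2 was at -0.92 and -1.26 against 0.14 and -0.14 (-1.09, adjusted p = 0.00727, and 0.0583 without 1 mM replicate 1). Both lay nearer to control at 1 mM.

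Protocadherins are cell adhesion proteins whose clustered genes lie side by side and are similar in sequence, so a probe may read more than 1 of them. Of 39 measured, 14 passed and all were lower at 5 mM, and all 14 belonged to the 22 of the beta cluster. None of the 8 alpha and gamma cluster genes or the 9 non-clustered genes passed. In the beta cluster 16 genes were called down at 5 mM and 1 at 1 mM. Over the whole list the medians were -0.64 at 5 mM and -0.27 at 1 mM. The median dose difference of the list was -0.58, and it was -0.19 with normexp correction and -1.08 among the 20 genes well above background. Pcdhb7 was at -1.45 and -1.30 against -0.02 and -0.12 (difference -1.31 ± 0.09, adjusted p = 0.000864), and Pcdhb15 at -1.53 and -1.55 against -0.24 and -0.31 (-1.26 ± 0.10, adjusted p = 0.00117). Both were dose-restricted. Pcdhb19 was dose-graded, at -2.28 and -2.00 against -0.66 and -0.63 (-1.49 ± 0.14, adjusted p = 0.00179).

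**Figure D4:**
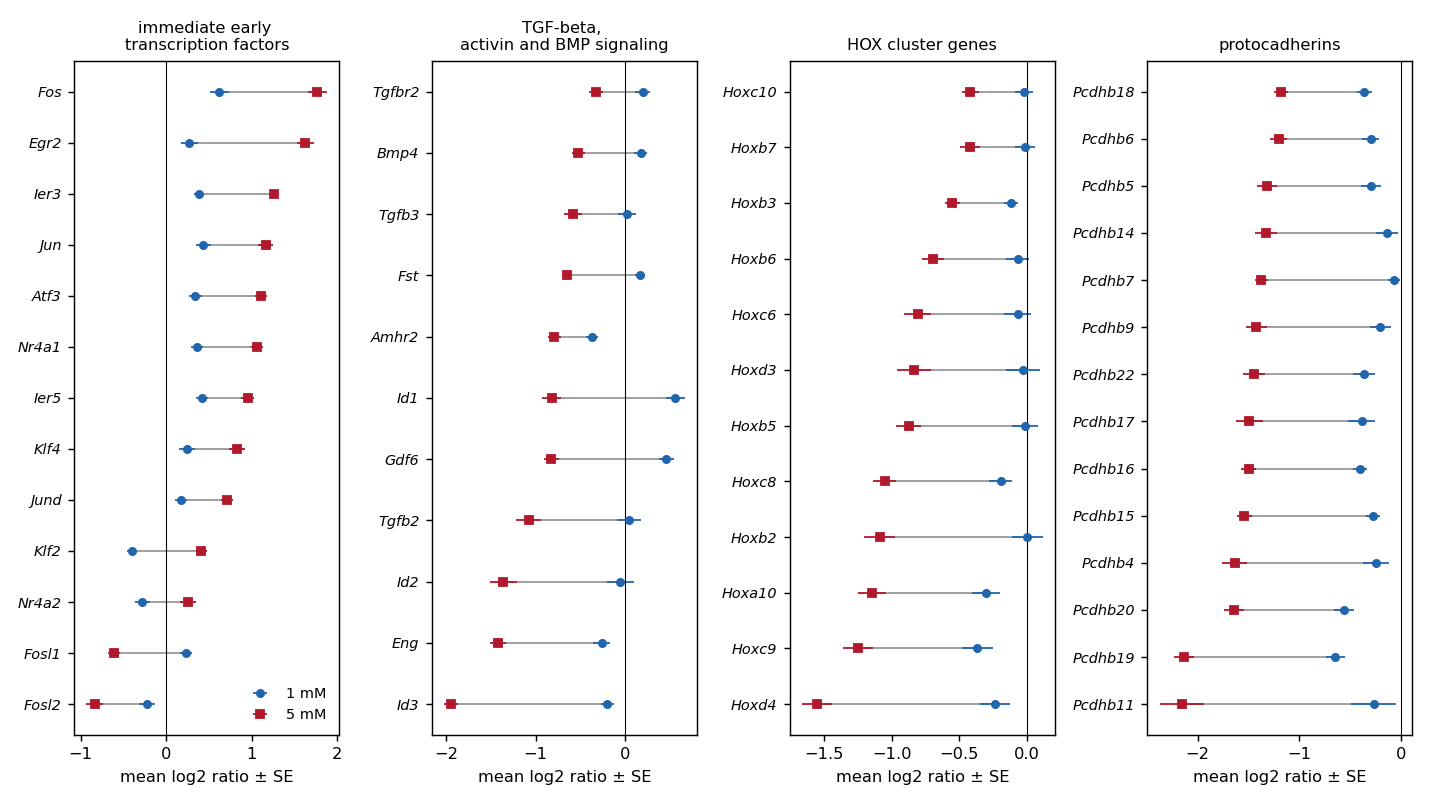
Mean log2 MAA/control ratio at 8 h (x axis) of the members of 4 lists that passed the dose test, at 1 mM (blue circles) and 5 mM (red squares), 2 arrays each, with bars for the standard error of each ratio and a line joining the doses. Among HOX genes, protocadherins and TGF-beta signaling genes every red square lies to the left of its blue circle, and among immediate early factors 11 of 13 lie to the right.

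The matrix genes that passed the dose test were mostly lower at 5 mM. Of 12 small leucine-rich proteoglycans, which organise collagen fibres, 4 were lower at 5 mM and none higher. Omd (osteomodulin) was at -5.76 and -3.94 at 5 mM and -0.43 and -0.71 at 1 mM (difference -4.29 ± 0.53, adjusted p = 0.00422). Neither 5 mM array had an MAA channel well above background for Omd, so the fall there is at least 27.7-fold and the spread between the arrays is not a measure of RNA. Ogn (osteoglycin) was at -1.53 and -1.40 against -0.27 and -0.25 (-1.22 ± 0.11, adjusted p = 0.00176). Of 36 collagen chains, 5 were lower and 1 higher (16.7% passed, beside 12.8% of all symbols). Col3a1, the chain of fibrillar type III collagen, was at -1.89 and -1.67 against -0.41 and -0.20 (-1.47 ± 0.19, adjusted p = 0.00459, and 0.0662 with normexp correction). Col2a1, the cartilage collagen, was at -1.65 and -1.46 against -0.32 and -0.23 (-1.28, adjusted p = 0.000986), while a second probe was at -0.17 and 0.10 and did not pass (adjusted p = 0.238). The named matrix genes lay nearer to control on the 1 mM arrays.

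Most matrix proteases that passed were also lower at 5 mM. Of 39 proteases and inhibitors, 8 were lower at 5 mM and 1 higher (23.1% passed, beside 18.1% of symbols well above background). Mmp14, a membrane-type collagenase, was at -1.61 and -1.99 against -0.03 and -0.41 (difference -1.58, adjusted p = 0.00575), and its second probe gave -1.08 (adjusted p = 0.0938). Of 19 genes of the insulin-like growth factor system and CCN proteins, 6 were lower and 2 higher. Ccn1, a matricellular protein, was a dose-graded rise at 1.99 and 2.13 against 0.83 and 0.68 (1.30 ± 0.13, adjusted p = 0.00245).

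Actin cytoskeleton genes passed the dose test in a share near the background, 6 of 44, and these 6 were higher at 5 mM. Of the 44, 11 were called up at 5 mM and 6 at 1 mM, beside 4.1% and 2.63% of all symbols. Vcl (vinculin), which links integrins to actin, was at 1.12 and 1.02 against 0.13 and 0.09 (difference 0.96 ± 0.08, adjusted p = 0.00134). Fhl2, a LIM domain cofactor, was at 1.58 and 1.34 against 0.45 and 0.46 (1.01 ± 0.14, adjusted p = 0.00631). Ablim3, an actin-binding LIM protein, was read by a probe whose control channel was not above background. On that probe the rise was at least 20.4-fold at 5 mM and at least 5.54-fold at 1 mM. The dose difference did not pass (adjusted p = 0.077). Another Ablim3 probe had means of 0.73 (5 mM) and -1.18 (1 mM), and a further probe 0.305 and -0.49. Both were dimmer, with no call at either dose, so the rise rests on 1 probe.

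The promoters of 6 genes that separated the doses are shown because each holds a short motif known for its class of gene. The motifs are the CArG box, which serum response factor binds, the cAMP response element (TGACGTCA) and the NF-kappa B site. Each window runs from 250 bases before to 50 bases after a RefSeq transcription start in GRCm38.p6, on the gene's strand, and capitals mark the motif, searched on both strands.
Vcl (chr14:20929148-20929447, plus strand): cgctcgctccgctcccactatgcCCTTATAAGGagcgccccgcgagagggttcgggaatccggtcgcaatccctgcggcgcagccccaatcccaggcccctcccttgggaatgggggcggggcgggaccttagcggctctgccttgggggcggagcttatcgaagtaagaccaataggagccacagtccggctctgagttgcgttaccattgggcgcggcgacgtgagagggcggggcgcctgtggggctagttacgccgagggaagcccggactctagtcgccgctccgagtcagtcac
Fhl2 (chr1:43196712-43197011, minus strand): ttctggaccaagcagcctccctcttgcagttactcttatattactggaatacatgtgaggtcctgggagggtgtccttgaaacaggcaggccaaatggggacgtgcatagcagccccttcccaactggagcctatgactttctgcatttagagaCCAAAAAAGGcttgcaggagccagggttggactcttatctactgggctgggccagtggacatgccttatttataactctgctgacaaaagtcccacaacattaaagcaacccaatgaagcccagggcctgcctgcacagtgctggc
Egr2 (chr10:67537316-67537615, plus strand): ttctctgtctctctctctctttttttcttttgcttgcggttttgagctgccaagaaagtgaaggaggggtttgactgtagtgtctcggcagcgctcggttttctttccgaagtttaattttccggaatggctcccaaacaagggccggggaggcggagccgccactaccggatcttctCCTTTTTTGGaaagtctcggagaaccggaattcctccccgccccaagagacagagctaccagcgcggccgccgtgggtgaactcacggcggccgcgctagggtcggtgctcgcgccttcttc
Areg (chr5:91139349-91139648, plus strand): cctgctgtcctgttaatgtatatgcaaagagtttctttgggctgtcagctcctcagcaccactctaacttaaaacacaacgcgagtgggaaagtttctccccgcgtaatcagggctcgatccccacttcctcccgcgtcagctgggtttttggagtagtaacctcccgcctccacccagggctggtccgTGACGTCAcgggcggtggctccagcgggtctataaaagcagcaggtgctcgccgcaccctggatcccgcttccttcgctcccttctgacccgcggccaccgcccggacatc
Cxcl1 (chr5:90890995-90891294, plus strand): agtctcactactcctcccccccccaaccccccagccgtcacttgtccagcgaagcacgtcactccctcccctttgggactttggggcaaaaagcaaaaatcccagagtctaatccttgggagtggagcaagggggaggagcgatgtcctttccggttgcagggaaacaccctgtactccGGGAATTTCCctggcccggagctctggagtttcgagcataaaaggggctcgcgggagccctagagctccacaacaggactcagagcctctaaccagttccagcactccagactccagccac
Cxcl10 (chr5:92348840-92349139, minus strand): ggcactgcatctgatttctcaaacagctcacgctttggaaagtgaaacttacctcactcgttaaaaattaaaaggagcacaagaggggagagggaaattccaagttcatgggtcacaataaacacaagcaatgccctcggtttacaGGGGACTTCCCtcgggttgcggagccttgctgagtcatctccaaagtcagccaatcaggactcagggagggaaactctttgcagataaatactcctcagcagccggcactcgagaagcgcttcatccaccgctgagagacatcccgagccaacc
Counted from the start, the CArG box runs from -227 to -218 in Vcl, from -96 to -87 in Fhl2 and from -72 to -63 in Egr2. The window shown is 1 of 2 annotated starts for Fhl2 and 1 of 5 for Egr2, and matches at the others were not counted. The cAMP response element of Areg runs from -61 to -54. The NF-kappa B site of Cxcl1 runs from -71 to -62, and Cxcl10 holds 2 overlapping matches. No marked motif overlaps another of those searched. Of all 32851 promoters 1.63% hold a CArG box, 1.79% a cAMP response element, 5.8% an NF-kappa B site and 35.7% a GC box (GGGCGG).

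By dose class, the GC box was found in 59.6% of the promoters of dose-graded genes, 38.8% of saturated, 49.7% of dose-restricted and 29.6% of low-dose genes. Among genes well above background it was in 60.5%. The CArG box was in 0.685%, 3.88%, 2.05% and 0% of these classes in the same order, beside 1.36%. For the cAMP response element the shares were 2.74%, 0%, 2.05% and 0%, beside 2.81%. For the NF-kappa B site they were 6.85%, 2.91%, 9.65% and 0%, beside 7.05%. Promoters were at hand for 120 of 177 dose-graded, 86 of 107 saturated, 239 of 310 dose-restricted and 26 of 31 low-dose symbols. Among actin cytoskeleton genes 7 of 35 with a promoter held a CArG box, and of the 5 that passed the dose test 3 held one (Vcl, Fhl2 and Cnn2, the last chosen after its values were seen). Among chemokines and interleukins 12 of 56 held an NF-kappa B site, and of 15 that passed 6 held one. In other lists the motifs were rarer. Of 20 immediate early factors with a promoter 2 held a CArG box, and of the 12 that passed 1 did (Egr2). A cAMP response element was in 1 of these 20 and in 0 of the 12 that passed. In the EGF family it was in 1 of 8 (Areg). These matches are letters in a window, without a measure of binding.

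Innate immune genes were counted by role. Of 12 Toll-like receptors and co-receptors, 6 were lower at 5 mM and none higher, whereas of 11 genes of NF-kappa B and its inhibitors 3 were higher and 2 lower. Tlr7, a receptor of single-stranded RNA, was at -1.84 and -1.80 at 5 mM and 0.04 and 0.10 at 1 mM (difference -1.89, adjusted p = 0.000621). Cd14, the co-receptor for lipopolysaccharide, was at -1.60 and -1.41 against -0.40 and -0.33 (-1.13, adjusted p = 0.00131). Together with Ly96, Tlr7 and Cd14 showed falls on each 5 mM array that the 1 mM arrays did not reach. Of 3 macrophage markers measured, 1 was well above background in the control channel on all 4 arrays and 1 on none, and Lyz2 was lower at 5 mM. The part of other cell types in these values was not tested.

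Chemokines went in both directions by gene. Of 32 measured, 5 were higher and 7 lower at 5 mM, and of 49 interleukins and related cytokines 4 and 5. The shares that passed were 37.5% and 18.4%, beside 12.8% of all symbols and 18.1% of those well above background. Cxcl10, an interferon-inducible attractant of T cells, was dose-graded at 3.63 and 3.52 against 1.13 and 1.20 (difference 2.41 ± 0.10, adjusted p = 0.000438). Cxcl1 and Cxcl5 attract neutrophils and were dose-restricted falls. Cxcl1 was at -1.19 and -1.41 against 0.45 and 0.29 (-1.67, adjusted p = 0.00111), and Cxcl5 at -1.37 and -1.69 against 0.24 and 0.18 (-1.75, adjusted p = 0.00124). Both genes lay slightly above control at the lower dose. Of 58 interferon-inducible genes, 11 were lower and 2 higher at 5 mM (22.4% passed). The lower ones included 3 of 5 of the p200 family of DNA sensors, such as Ifi205 at -1.38 and -1.28 against -0.16 and -0.26 (-1.12 ± 0.14, adjusted p = 0.0041) and Ifi202b at -1.27 and -1.25 against -0.20 and -0.33 (-0.99 ± 0.09, adjusted p = 0.00186). Of 33 antigen presentation genes 2 were higher and 3 lower (15.2% passed, near the background). Of the 33, 4 were dose-graded, beside 164 of all 16017 symbols.

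Linker histones, which bind the DNA between nucleosomes, were called up at both doses in 4 of 10 measured genes, beside 4.1% of all symbols called up at 5 mM and 2.63% at 1 mM. H1f0, the histone of non-dividing cells, was dose-graded at 1.57 and 1.55 at 5 mM and 0.58 and 0.62 at 1 mM (difference 0.96 ± 0.10, adjusted p = 0.00232). H1f2 was saturated at 1.49 and 1.62 against 0.92 and 1.02 (0.59, interval 0.21 to 0.97, adjusted p = 0.0664). H1f10 was at 1.46 and 1.84 against 0.71 and 0.99 (0.80 ± 0.17, adjusted p = 0.0281). For H1f10 the adjusted p was 0.164 without 1 mM replicate 1, 0.0651 without 1 mM replicate 2, 0.137 without 5 mM replicate 2 and 0.0588 with arrays centred. H1f3 was at 2.60 and 2.29 against 1.61 and 1.55 and did not pass (adjusted p = 0.104), and a second probe of it had means of 0.26 and 0.06 with no call. The H1f3 probes thus disagree on the rise itself. Of 29 core histone genes 2 were higher and 5 lower at 5 mM (24.1% passed, beside 18.1% of symbols well above background). Among 28 histone deacetylases and acetyltransferases 1 was higher and 3 lower, and none was called at either dose. The share that passed, 14.3%, was near the background of 12.8% of all symbols.

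Of 30 steroidogenesis and Leydig cell genes 3 were higher and 2 lower at 5 mM, a share slightly above the background over all symbols. Hsd17b1, a 17-beta-hydroxysteroid dehydrogenase, was a dose-restricted rise at 1.34 and 1.25 against 0.13 and 0.52 (difference 0.97 ± 0.13, adjusted p = 0.00521). Insl3, a peptide hormone of Leydig cells, was at -0.86 and -0.56 against -0.15 and 0.04 and did not pass (adjusted p = 0.0589). Cyp11a1, which starts steroid synthesis, was not well above background on any of the arrays, and Esr1, the estrogen receptor alpha, did not pass at -1.06 (adjusted p = 0.0739). Of 30 cholesterol synthesis and uptake genes 5 were lower and 1 higher (20% passed, beside 18.1% of symbols well above background). Among the lower was Insig1, a feedback inhibitor of cholesterol synthesis, at -1.14 and -1.12 against -0.25 and -0.24 (-0.89 ± 0.09, adjusted p = 0.00219).

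Cell cycle genes differed between doses by small amounts. Of 62 genes of DNA replication and mitosis 16 were lower and 4 higher at 5 mM, while E2f2 alone was called at a dose (up at 5 mM, mean 1.48). Aurka, a mitotic kinase, was at -0.67 and -0.58 against 0.08 and 0.03 (difference -0.68 ± 0.09, adjusted p = 0.00518). The mitotic genes Plk1, Ccnb1 and Cdc20, chosen after their values were seen, had means of -0.72, -0.64 and -0.70 at 5 mM against -0.07, -0.01 and -0.04 at 1 mM. By role, 12 of 27 mitosis genes were lower at 5 mM and 0 higher, while of 35 replication genes 4 were higher and 4 lower. E2f2, Orc1, Cdc6 and Chaf1b, likewise chosen after their values were seen, were the 4 replication genes higher at 5 mM. Cell number was not measured on these arrays.

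Of 19 circadian clock genes 3 were higher and 1 lower at 5 mM (21.1% passed, beside 18.1% of symbols well above background). Arntl, the clock activator BMAL1, was dose-graded at 1.37 and 1.46 against 0.78 and 0.71 (difference 0.67 ± 0.08, adjusted p = 0.00392). Saturated falls, chosen after their values were seen, were found for Dbp and Bhlhe41. Dbp, a clock output factor, was at -1.20 and -0.96 against -1.08 and -0.85, and Bhlhe41, a clock repressor, at -1.27 and -1.11 against -0.80 and -0.60. The doses overlapped for Dbp and not for Bhlhe41.

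The dose difference was then compared between times in the same fit. Against 3 h, the difference at 8 h differed for 5 probes (0.0121%), and against 24 h for 438 (1.06% of 41173). The 438 included 317 whose dose difference had the opposite sign at 24 h, 50 of the same sign and larger at 8 h, and 71 of the same sign and smaller. Without 1 of the 4 arrays at 8 h these counts fell to 0 against 3 h and to between 10 and 63 against 24 h, so the genes named next rest on all 4. Of the dose classes, 64 of 524 dose-restricted and 20 of 300 dose-graded probes were among the 438. The median dose difference of dose-restricted probes that fell was -1.05 at 8 h, -0.54 at 3 h and -0.54 at 24 h. That of dose-graded probes that rose was 0.96, 0.41 and 0.68. Both were larger at 8 h, the time at which they were chosen.

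Of the 5 probes that separated 8 h from 3 h, 3 belong to Id2, Id3 and Dusp6. Id3 had a dose difference of -1.75 at 8 h and 0.11 at 3 h, and Dusp6 of -0.49 and 1.01. The Id2 probe, which is not the one described above, had -1.15 and 0.77. The others were Sema3a, with -1.81 and -0.16, and Slc24a3, a sodium-calcium exchanger gene, with -1.54 and 0.04. All 5 had an adjusted p of 0.0269, and Slc24a3 and this Id2 probe were chosen after their values were seen. In 4 of the 5 the sign differed between the times.

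Against 24 h, the named genes included some with a smaller dose difference at 24 h and some with the opposite sign. Tlr7 had a dose difference of -1.89 at 8 h and 0.36 at 24 h (adjusted p = 0.00361 for the difference between times). Cxcl5 had -1.75 and 0.60 (adjusted p = 0.00765), and Fgf7 -1.93 and -0.01 (adjusted p = 0.00713). Gdf6 had -1.29 and 0.58 (adjusted p = 0.0088). For Cxcl10 the difference was 2.41 at 8 h and 0.66 at 24 h (adjusted p = 0.00765), and for Ccn1 1.30 and 0.02 (adjusted p = 0.0342). Cxcl10 kept a positive dose difference at 24 h, while that of Ccn1 had all but vanished. At 3 h the dose differences of these genes had the sign of 8 h, with -1.19 for Tlr7, -2.57 for Cxcl5, -0.57 for Fgf7, -0.59 for Gdf6, 1.37 for Cxcl10 and 1.58 for Ccn1. Other genes had a larger dose difference at 24 h than at 8 h. Gsta2 had a dose difference of -0.49 at 8 h and 2.02 at 24 h (adjusted p = 0.0151), and Depp1 -0.20 and -2.17 (adjusted p = 0.0413). Egr1 had -0.25 at 8 h and 1.44 at 24 h (adjusted p = 0.0309), with 1.48 at 3 h.

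**Figure D5:**
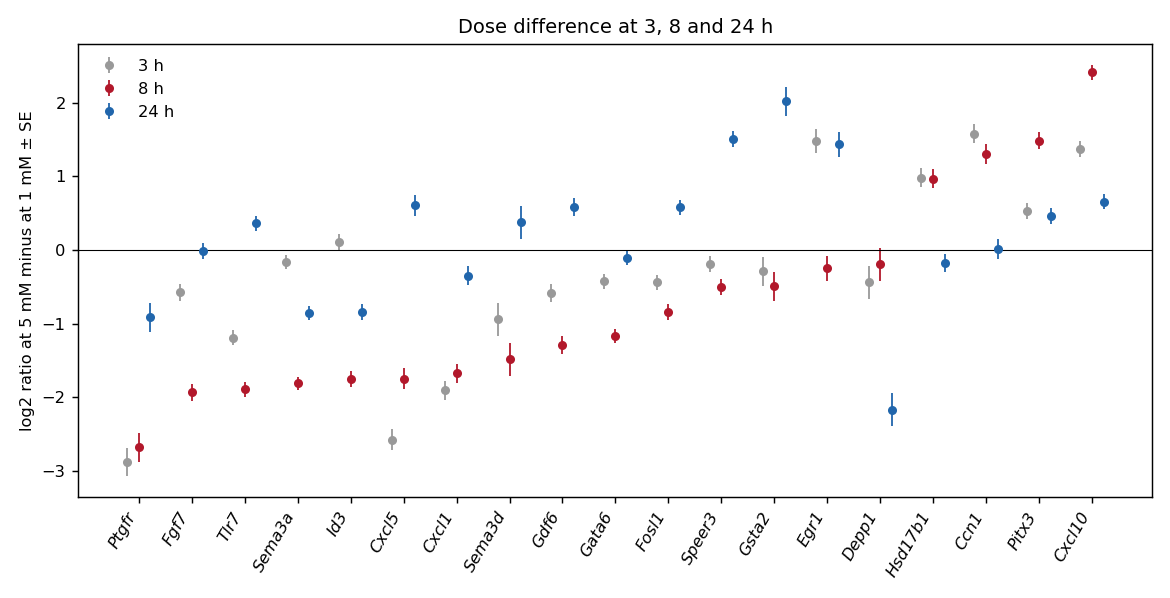
Dose difference (log2 ratio at 5 mM minus that at 1 mM, y axis, ± SE) at 3 h (grey), 8 h (red) and 24 h (blue) for 19 genes whose difference at 8 h differed from that at 3 h or 24 h, 2 arrays per dose and time. Gsta2, Egr1 and Depp1 lie near 0 at 8 h and far from it at 24 h, while Fgf7 and Gata6 lie far below 0 at 8 h and near it at 24 h.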

How the data were processed

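RNA of TM3 cells was hybridized to 12 Agilent whole-genome mouse arrays in 2 dyes (Alexa 555 and Alexa 647), 2 arrays for each of 6 conditions, with dyes exchanged between replicates. The deposited scanner files, made by the authors with Agilent Feature Extraction 9.5.3.1, hold intensity values already background-subtracted and dye-normalized (processed signals), raw mean and background intensity, and a log10 ratio of red to green. The authors' value table holds a log10 ratio turned to MAA over control, with unstated settings.

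From the processed signals, log2 ratios were turned to MAA over control, control spots (1639 of 45018) and spots marked as outliers (132 to 163 on the arrays at 8 h) were left out, and spots were averaged per probe. Probes were named through RefSeq tables of the mouse genome (22147 of 41174, giving 16017 symbols), and unnamed probes were counted but not named. For gene lists the probe with the highest mean signal stood for a symbol.

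Tests used limma 3.58.1 in R 4.3.3 on all 12 arrays with 1 mean per condition, with residual degrees of freedom of 6 and Benjamini-Hochberg adjustment over all probes. The study's thresholds were p under 0.005 with over 2-fold (5 mM) or 1.5-fold (1 mM). The median standard error was 0.150 for a log2 ratio and 0.213 for a dose difference. Differences well above their standard error could fail the dose test, such as -0.66 ± 0.18 for Insl3 (limma, adjusted p = 0.0589). The replicates were separate pools of 3 cultures, and the number of arrays limits precision. At 8 h each slide held replicates of the same number and dye orientation of both doses. The scripts were tested on simulated data. Alternatives were normexp correction with loess, the deposited log10 ratios, centring, a filter on dim probes, outliers kept, replicate and slide blocks, the 4 arrays alone, MAA channels compared directly, 1 probe per symbol, other folds and leaving out each array. Named genes were those with the largest ratios in each class and direction. Up to 4 genes with the largest differences past the test came from each of 46 gene lists. Both kinds were well above background, while genes that the study names were taken whatever their values. The members and lists were chosen with earlier results of these data known. Promoters came from RefSeq (GRCm38.p6). Figures used matplotlib 3.10.9. A withheld item is not reported here.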

Additional observations from a re-analysis of the deposited data

Results flagged for a closer look

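The dose difference at 8 h differed from that at another time by a test of the difference itself (limma, adjusted p under 0.05) for 5 probes against 3 h and for 438 probes against 24 h. The values below are the dose difference at 8 h minus that at the other time, on the log2 scale. Against 3 h they were -1.50 for Dusp6, -1.86 for Id3 and -1.65 for Sema3a.

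Against 24 h, genes whose dose difference was more negative at 8 h included Gsta2 (-2.51), Cxcl5 (-2.35), Tlr7 (-2.25), Speer3 (-2.00), Fgf7 (-1.92), Gdf6 (-1.88), Sema3d (-1.86), Ptgfr (-1.76) and Egr1 (-1.69). Smaller values of that sign were found for Fosl1 (-1.42), Cxcl1 (-1.32), Dusp6 (-1.30), Gata6 (-1.06), Sema3a (-0.95) and Id3 (-0.91). Genes with a more positive dose difference at 8 h were Depp1 (1.97), Cxcl10 (1.76), Ccn1 (1.29), Hsd17b1 (1.15) and Pitx3 (1.02). Without each of the 4 arrays at 8 h in turn, 0 probes against 3 h and 10 to 63 probes against 24 h differed. Groups of 2 arrays were too small for a check of single outlying samples.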

How the results depend on the processing

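The probes past the dose test (4162) kept their direction in each alternative fit that tested them, except 2 with normexp correction. Of them, 4023 were tested among probes well above background and 2049 with 1 probe per symbol. In both of those fits, with the 4 arrays alone and with replicate or slide blocks, the dose difference of a probe is unchanged, so its direction could not differ. Selection on these same arrays also favors an unchanged direction in the other fits. The MAA channels gave the same direction for 4137 of 4153. Among 1105 values of the named genes, none of a gene past the dose test changed sign (114 no longer passed, of which 62 with the 4 arrays alone). Genes that did not pass could change sign, such as Il7r, whose difference ran from -0.52 to 0.44 when 1 array was left out. The number of probes higher and lower at 5 mM (1992 and 2170) depended more on the setting. They were 3273 and 3410 among probes well above background, 4956 and 5044 for the MAA channels directly, 301 and 474 when also over 2-fold, 448 and 1043 with arrays centred and 418 to 652 and 641 to 941 without 1 array. Higher probes were 3048 with the scanner's log10 ratio, 3055 with the deposited value table and 3084 with the slide as a block (6293 in all), and lower probes 1379 with 1 probe per symbol. The 4 arrays alone gave 0 and 0 by limma (3764 and 3678 at an unadjusted p under 0.05), with fewer residual degrees of freedom. Dose-graded probes (300) were 183 with normexp, 188 with centring, 0 with the 4 arrays alone, 190 with 1 probe per symbol and 114 to 172 without 1 array. Saturated probes (160) were 64 with normexp, 286 with the slide block, 79 with 1 probe per symbol, 284 with 1.5-fold at both doses and 141 to 159 without 1 array. Dose-restricted probes (524) were 0 with the 4 arrays alone, 282 with 1 probe per symbol, 2012 with 1.5-fold at both doses and 254 to 496 without 1 array. Probes called at 5 mM (2284) were 1030 with normexp, 1051 with 1 probe per symbol and 2095 to 2249 without 1 array, and at 1 mM (977) 398, 510 and 808 to 923, and 1535 with the slide block. Against 3 h (5) normexp gave 128 and against 24 h (438) 1124, and without 1 array 0 and 10 to 63.

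With the replicate block, 4105 probes were higher and 4061 lower at 5 mM, 97 differed from 3 h and 2343 from 24 h. The replicate number stands for the dye orientation in the labels, and at 8 h also for the slide. Deviations of same-numbered arrays correlated at 0.402 between the doses at 8 h, and at 0.0750 to 0.514 over the 15 pairs of conditions, so that culture pairing is not settled. Other causes of these shifts were not tested. Ratios to control with the slide block are given as on a slide without arrays of 8 h. Its counts of saturated probes (286) and of calls at 1 mM (1535) are therefore not comparable with the main ones. The dose difference is not affected by this. Weak signals limit the low probes, since 62.9% of probes were well above background on all 4 arrays.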
